A study of Homo sapiens with 3 samples.

Results

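The TGF-beta ligands TGFB1 and TGFB2, the receptors TGFBR1 and TGFBR2, the signal transducers SMAD3 and SMAD4, and the target genes CCN1, CCN2 and TGFBI were described in PANC-1 cells. These 9 genes were chosen by name, with earlier results of these data known. Every probe set that the platform annotation assigns to one of them alone was kept. This gave 25 probe sets of the 54613 on the array and 9 of 19775 named genes. No probe set was shared in that annotation between one of these genes and another gene. PANC-1 is a human cell line from a pancreatic ductal adenocarcinoma. The arrays were 1 of a stable line expressing wild-type JMJD3, 1 of a stable line expressing a mutant JMJD3 and 1 of a control line carrying the blank MSCV retroviral vector, with no further treatment. JMJD3, the protein of KDM6B, removes methyl groups from lysine 27 of histone H3. The nature of the mutation, and whether a line grew from 1 clone, are not given in the sources used here. With 1 array per line there were 0 replicates, so no test was run and every difference below is one between single arrays.

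TGF-beta is secreted in a latent complex that is held in the matrix. Once released, the ligand brings the type II receptor TGFBR2 to the type I receptor TGFBR1, which phosphorylates SMAD2 and SMAD3. These join SMAD4, enter the nucleus and act on target genes. In ductal tumours of the pancreas the pathway is known both as a brake on growth and as a driver of invasion and matrix production, and SMAD4 is often lost. CCN1, CCN2 and TGFBI encode proteins of the extracellular matrix, and CCN1 and CCN2 are also classical targets of YAP with its DNA-binding partners, the TEAD proteins.

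Signals are log2 values per probe set, deposited with 2 decimals. Values at or under the pooled median of all arrays (5.48) were treated as dim and set to that floor before a difference was taken, and a gene or probe set was measured in a comparison when at least 1 of its arrays lay over the floor. Of the 25 probe sets, 16 were over the floor in at least 1 array, and each of the 9 genes had at least 1 of these. The brightest probe set stood for its gene. A difference of 1 on the log2 scale is 2-fold, the size from which genes were counted. The array medians were 5.48 for wild-type JMJD3, 5.49 for mutant JMJD3 and 5.50 for control, and 21.0% of all probe sets held the same value in every array, so a difference of 0 does not show equal transcript levels. KDM6B itself read 6.73 with wild-type JMJD3, 6.45 with mutant JMJD3 and 5.53 in control at 1556067_a_at, while its brightest probe set 41387_r_at read 7.66, 7.65 and 7.60 in the same order. Its other probe sets were 1556066_at, at 6.75, 6.51 and 6.02, 41386_i_at, at 6.99, 6.88 and 6.99, and 213146_at, at 5.12 in every array. Epithelial markers were over the floor in 5 of 6 cases, and their summed linear signal was 17479 with wild-type JMJD3, 9854 with mutant JMJD3 and 15230 in control. Their mean log2 signal was 9.12, 8.68 and 8.53 in the same order, which put the mutant above control. KRT18 was the brightest, at 12.83 to 13.47. KRT19 was 5.46-fold above control with wild-type JMJD3 and 4.53-fold with mutant JMJD3, KRT7 was 2.2-fold above control with wild-type, and KRT8 was 2.13-fold below it with the mutant. EPCAM was highest with the mutant, at 7.07, against 5.83 with wild-type JMJD3 and 6.17 in control. The part of these markers in the results was not tested. E-cadherin (CDH1) was at 4.62 in every array, under the floor, and vimentin (VIM) read 13.27 to 13.34. The other mesenchymal markers, N-cadherin (CDH2) and ZEB1, were less level. CDH2 was 1.32-fold above control with wild-type JMJD3 and 1.88-fold with mutant JMJD3. ZEB1 read 8.68 with wild-type JMJD3, 9.84 with mutant JMJD3 and 9.36 in control, so that wild-type was 2.23-fold below the mutant. The part of the mesenchymal markers in the results was not tested either. Only 1 of 4 acinar markers (CPA1), 3 of 3 endocrine and 2 of 3 immune markers had a probe set assigned to them alone. All of these were under the floor, and of 3 endothelial markers only PECAM1 was over it (6.27 to 6.28).

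**Figure D1:**
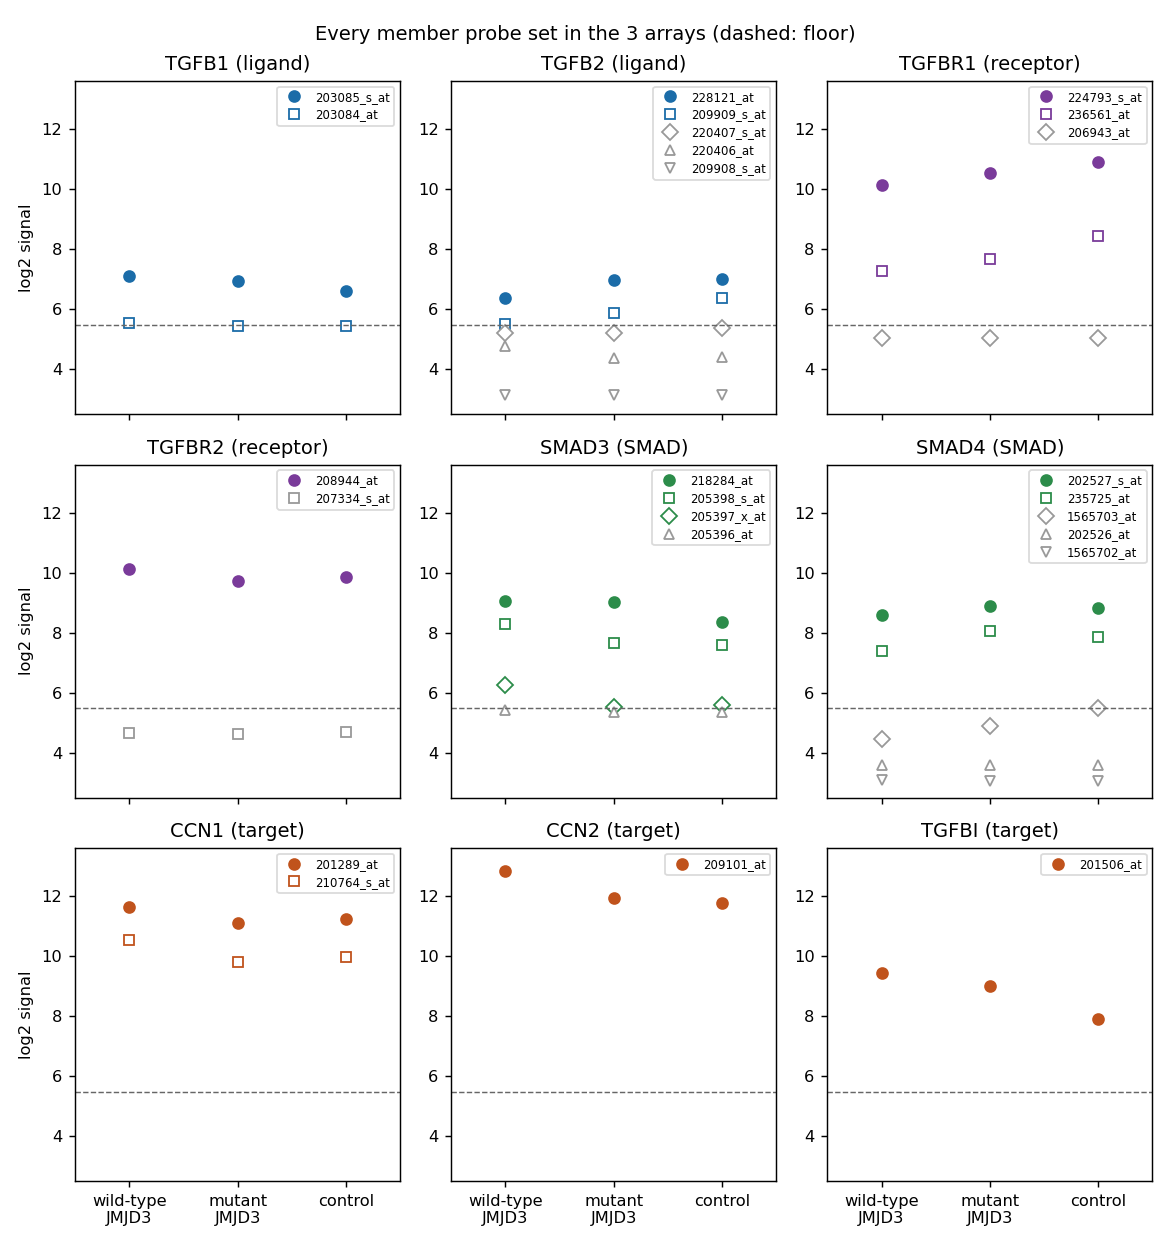
Log2 signal (vertical axis) of each of the 25 probe sets of the 9 genes in the wild-type JMJD3, mutant JMJD3 and control arrays, 1 point per array, with filled points for the brightest probe set, open points for the others and grey points for probe sets never over the floor (dashed, 5.48). CCN2 and TGFBI are highest with wild-type JMJD3, and both bright TGFBR1 probe sets are lowest there.

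The target genes and the type I receptor lay on opposite sides of control in the wild-type JMJD3 array. All 3 target genes were above control, 2 of them by 2-fold or more, TGFBI at 2.87-fold and CCN2 at 2.08-fold. TGFBR1 was 1.68-fold lower and the ligand TGFB2 1.56-fold lower. With mutant JMJD3 only TGFBI of the 9 genes differed from control by 2-fold, at 2.14-fold higher, and no gene differed by that much between the wild-type and mutant arrays. The shares over all measured genes are given beside these counts. The 9 genes were chosen with earlier results of these data known, so the counts are no test of the genes. With wild-type JMJD3, 0.953% of 12697 genes were 2-fold higher than control and 1.31% were 2-fold lower. With mutant JMJD3, 2.98% of 12707 genes were 2-fold higher and 0.535% lower. Between wild-type and mutant JMJD3, 2.61% of 12829 genes were 2-fold higher and 6.2% lower.

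**Figure D2:**
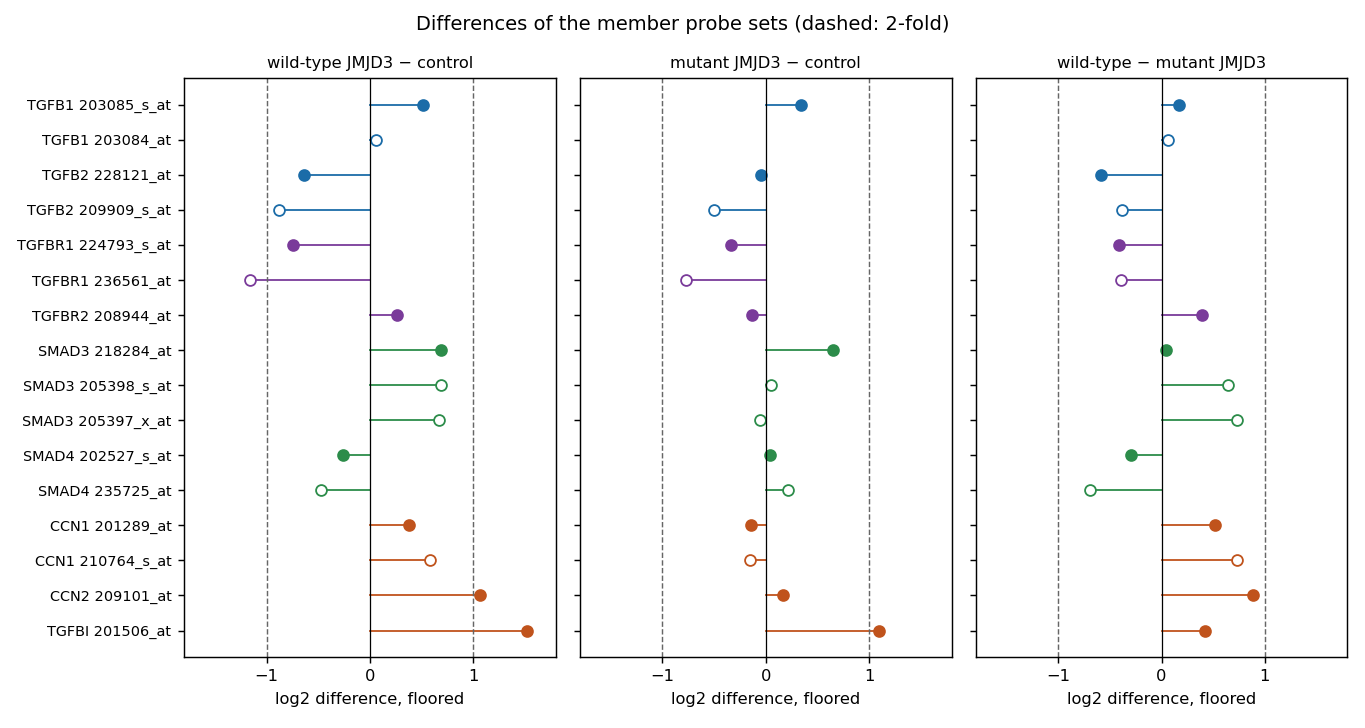
Log2 differences after flooring (horizontal axes) of the 16 member probe sets over the floor in at least 1 array, for wild-type JMJD3 minus control, mutant JMJD3 minus control and wild-type minus mutant JMJD3, with filled points for each gene's brightest probe set and dashed lines at 2-fold. TGFBI passes 2-fold in both comparisons with control, and CCN2 and the TGFBR1 probe set 236561_at pass it with wild-type JMJD3 alone.

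TGFB1 encodes the most widely expressed of the ligands. Its probe set 203085_s_at had log2 signals of 7.12 with wild-type JMJD3, 6.95 with mutant JMJD3 and 6.61 in control. The order was therefore wild-type, mutant, control, with folds of 1.42 and 1.27 over control, both under 2-fold. Among all measured genes, 21.9% differed more than TGFB1 between wild-type JMJD3 and control, and 28.6% between mutant JMJD3 and control. The other probe set, 203084_at, read 5.54 with wild-type JMJD3, just over the floor, and 5.44, under it, in each of the others. The value for TGFB1 thus rests on 203085_s_at, whose suffix marks probes that can match more than 1 transcript.

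TGFB2 encodes a ligand that binds TGFBR2 well only with the help of the accessory receptor betaglycan (TGFBR3). Its brightest probe set, 228121_at, read 6.37 with wild-type JMJD3, 6.96 with mutant JMJD3 and 7.01 in control. The wild-type array stood below the other 2, which differed by 0.05. A second probe set, 209909_s_at, read 5.50 with wild-type JMJD3, 5.88 with mutant JMJD3 and 6.38 in control, so that wild-type JMJD3 was again lowest, at 1.84-fold under control. Here the mutant was lower than control as well, by 1.41-fold against 1.04-fold at 228121_at. The remaining 3 of its 5 probe sets were under the floor in every array. The 2 ligands thus lay on opposite sides of control with wild-type JMJD3, TGFB1 above and TGFB2 below, each by less than 2-fold.

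TGFBR1 encodes the type I receptor kinase, also called ALK5. Probe set 224793_s_at read 10.14 with wild-type JMJD3, 10.55 with mutant JMJD3 and 10.89 in control. Probe set 236561_at read 7.28 with wild-type JMJD3, 7.67 with mutant JMJD3 and 8.44 in control. Both gave the same order, with wild-type JMJD3 lowest, mutant JMJD3 between and control highest. Relative to control, wild-type JMJD3 was 1.68-fold lower at the brightest probe set and 2.23-fold lower at the dimmer one, and mutant JMJD3 was 1.27-fold and 1.71-fold lower. The step between the JMJD3 arrays was nearly the same at both probe sets, at -0.41 and -0.39 for wild-type minus mutant. Of all measured genes, 7.43% differed more from control with wild-type JMJD3 than the brightest TGFBR1 probe set. Whether TGFBR1 counts as 2-fold lower depends on the probe set, since 236561_at alone gives -1.16 on the log2 scale. The other probe set, 206943_at, read 5.04 in every array.

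TGFBR2 encodes the type II receptor kinase that binds the ligand first. Its probe set 208944_at read 10.11 with wild-type JMJD3, 9.72 with mutant JMJD3 and 9.85 in control. The spread over the 3 arrays was 0.39, the smallest at a brightest probe set after SMAD4. Wild-type JMJD3 was 1.20-fold higher than control and mutant JMJD3 1.09-fold lower. About as many genes differed more than this as less with wild-type JMJD3 (49.6% more). The receptors therefore differed in direction with wild-type JMJD3, TGFBR1 below control and TGFBR2 slightly above.

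SMAD3 encodes a SMAD that the type I receptor activates directly, and its probe sets differed over the mutant. At 218284_at the signals were 9.06 with wild-type JMJD3, 9.02 with mutant JMJD3 and 8.37 in control, so both JMJD3 arrays were above control, by 1.61-fold and 1.57-fold. At 205398_s_at they were 8.29 with wild-type JMJD3, 7.65 with mutant JMJD3 and 7.60 in control. At 205397_x_at they were 6.26 with wild-type JMJD3, 5.53 with mutant JMJD3 and 5.59 in control. All 3 probe sets agreed on wild-type JMJD3 against control, with log2 differences of 0.69, 0.69 and 0.67. They split over the mutant, which was 0.65 above control at 218284_at but 0.05 above at 205398_s_at and 0.06 below at 205397_x_at. A higher SMAD3 signal with mutant JMJD3 thus rests on 1 of 3 measured probe sets.

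SMAD4 encodes the partner shared by the receptor-activated SMADs. It was well above the floor in every line, with 202527_s_at at 8.58 with wild-type JMJD3, 8.88 with mutant JMJD3 and 8.84 in control. Probe set 235725_at read 7.38 with wild-type JMJD3, 8.07 with mutant JMJD3 and 7.85 in control. Wild-type JMJD3 was the lowest array at both, 1.20-fold and 1.39-fold under control. Mutant JMJD3 was within 0.22 of control at both. The other 3 probe sets were at or under the floor in every array.

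CCN1, formerly CYR61, encodes a matricellular protein that binds integrins. Its probe set 201289_at read 11.63 with wild-type JMJD3, 11.11 with mutant JMJD3 and 11.25 in control, and 210764_s_at read 10.55, 9.82 and 9.97 in the same order. The wild-type array was highest at both, and mutant JMJD3 lay slightly under control. The folds over control with wild-type JMJD3 were 1.30 and 1.49, and those over mutant JMJD3 were 1.43 and 1.66.

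CCN2, formerly CTGF, encodes another matricellular protein and is a standard readout of TGF-beta in fibrosis. Its only probe set, 209101_at, read 12.84 with wild-type JMJD3, 11.95 with mutant JMJD3 and 11.78 in control. Wild-type JMJD3 thus stood apart from the other arrays, which were within 0.17 of each other. The 2.08-fold excess of wild-type JMJD3 over control was just past 2-fold, and the log2 difference became 0.99 with quantile normalization. The wild-type array exceeded the mutant array 1.85-fold, where 11.7% of measured genes differed more.

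TGFBI encodes a secreted matrix protein that binds collagens and integrins and takes its name from its induction by TGF-beta. Its only probe set, 201506_at, read 9.43 with wild-type JMJD3, 9.01 with mutant JMJD3 and 7.91 in control. Here control stood apart and the JMJD3 arrays lay 0.42 from each other, unlike CCN1 and CCN2, for which the mutant array was close to control. Of all measured genes, 0.276% differed more than TGFBI between wild-type JMJD3 and control, and 2.55% did so between mutant JMJD3 and control. When the pooled median signal was added to every value as an offset instead of flooring, TGFBI differed by 0.97 on the log2 scale with mutant JMJD3, under 2-fold.

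Markers of fibroblasts, cells that make matrix proteins, were over the floor in 4 of 5 cases. Their summed linear signal was 1968 with wild-type JMJD3, 1540 with mutant JMJD3 and 1393 in control, while their mean log2 signal was 6.77, 6.40 and 6.48 in the same order, with the mutant lowest. COL1A1, which is also among the TGF-beta target genes below, gave most of the sum, at 10.69, 10.38 and 10.16 on the log2 scale. PDGFRB read 7.46 with wild-type JMJD3, 6.23 with mutant JMJD3 and 6.86 in control. DCN read 5.86, 5.68 and 5.68 in that order and THY1 6.11 in every array. Lumican (LUM) was under the floor in every array, at 3.59 to 3.71. The part of these markers in the target gene values was not tested. In such bulk RNA, a change in the share of cells expressing a gene and a change in its RNA per cell cannot be told apart.

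**Figure D3:**
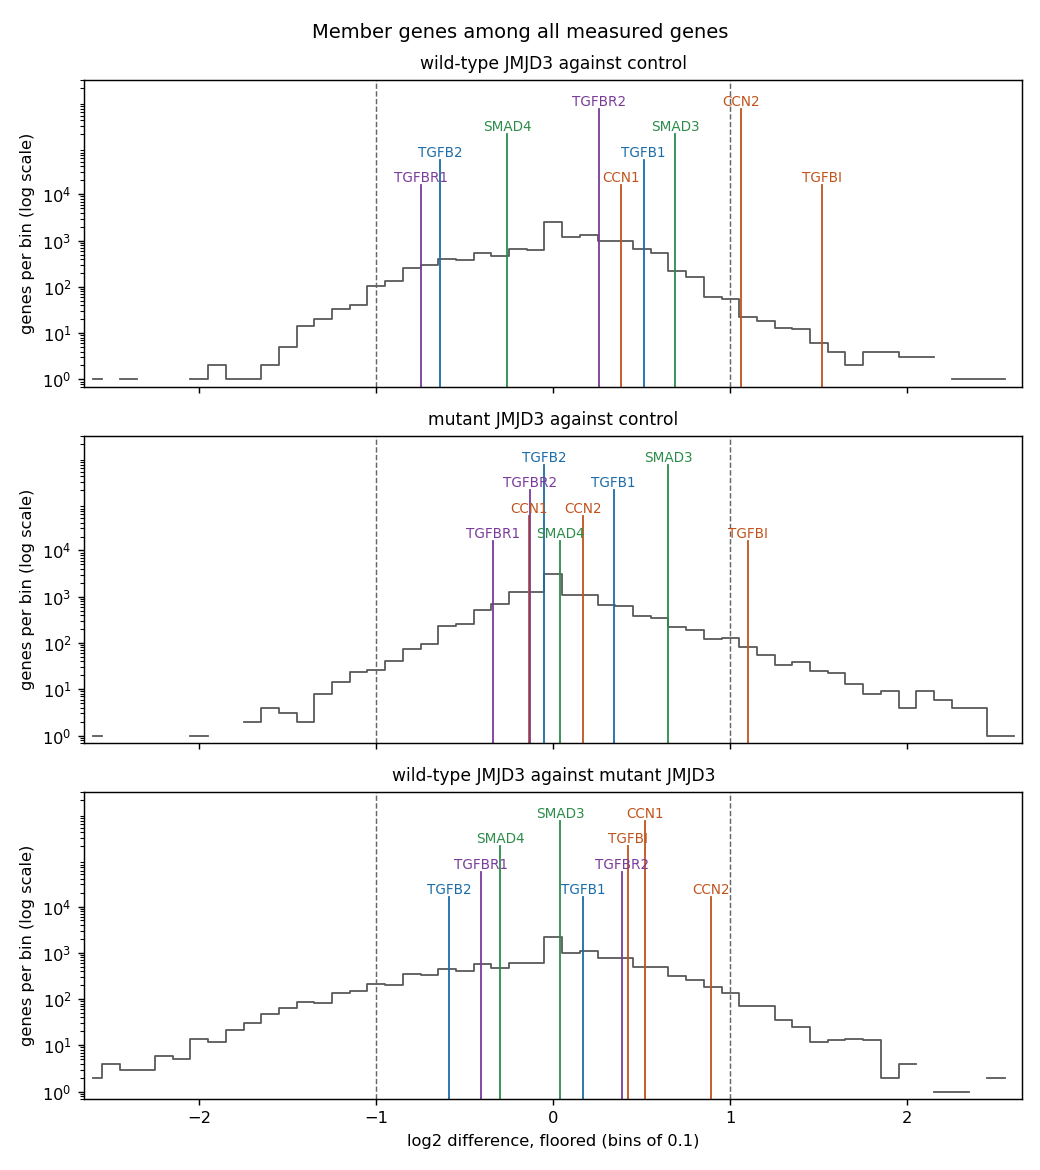
Number of measured genes (vertical axis, log scale) by log2 difference after flooring (horizontal axis, bins of 0.1) in the 3 comparisons, with the 9 genes drawn as coloured lines by role, whose heights carry no value, and dashed lines at 2-fold. Genes beyond 2.6 on either side are not drawn (2, 9 and 11 genes from top to bottom), and TGFBI and CCN2 lie past the right 2-fold line in the top panel.

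Counted by direction alone, 6 of the 9 genes were above control with wild-type JMJD3 and 3 below, with a median log2 difference of 0.38. Over all measured genes 54.4% were above control and the median was 0.05. At a threshold of 1.5-fold, 3 of the 9 genes were higher (TGFBI, CCN2 and SMAD3), beside 7.15% of all genes, and 2 were lower (TGFBR1 and TGFB2), beside 9.08%. With mutant JMJD3, 5 genes were above control, beside 45.9% of all genes, and 4 below, and the median was 0.04. TGFBI and SMAD3 were then 1.5-fold higher, beside 9.51% of all genes, and 0 of the 9 were 1.5-fold lower, beside 3.38%. Between wild-type and mutant JMJD3, 6 genes were above, beside 49.7% of all genes, and 3 below, with a median of 0.17, and only CCN2 (higher) and TGFB2 (lower) reached 1.5-fold, beside 11.3% and 15.9% of all genes. The comparisons with control share 1 control array, so they are not separate observations. As the 9 genes were chosen with earlier results known, these counts too are no test of them. Counted by probe set, 10 of 16 measured were above control with wild-type JMJD3, beside 13084 of the 28026 measured over the whole array. Of the 16, 2 were 2-fold higher (0.667% of all probe sets), and 236561_at of TGFBR1 was 2-fold lower (2.06%).

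Promoter sequence is given for CCN2 and TGFBI, which passed 2-fold, and for TGFB2, the ligand that was lower, so that their start regions can be compared. The windows hold 250 bases before and 50 bases from the gene start, and come from RefSeq, build GRCh38.p14, in a table used here with 20 windows for 8 of the 9 genes. A window for CCN1 was not used here. They lie at chr6:131951323-131951622 on the minus strand (CCN2), chr5:136028738-136029037 on the plus strand (TGFBI) and chr1:218345086-218345385 on the plus strand (TGFB2). Capitals mark matches on either strand to GGAATG, the core bound by TEAD proteins, CAGAC, a SMAD-binding element, TGANTCA, the AP-1 element, and TATAAA, the TATA box. The motifs were chosen with the sequences and results in view, and no capitals overlap.
CCN2: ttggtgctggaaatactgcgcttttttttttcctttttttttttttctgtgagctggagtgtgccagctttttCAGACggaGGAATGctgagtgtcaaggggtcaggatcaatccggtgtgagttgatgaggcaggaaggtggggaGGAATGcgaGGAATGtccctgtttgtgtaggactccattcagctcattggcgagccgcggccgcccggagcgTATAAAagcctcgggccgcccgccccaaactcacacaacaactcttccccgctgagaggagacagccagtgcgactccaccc
TGFBI: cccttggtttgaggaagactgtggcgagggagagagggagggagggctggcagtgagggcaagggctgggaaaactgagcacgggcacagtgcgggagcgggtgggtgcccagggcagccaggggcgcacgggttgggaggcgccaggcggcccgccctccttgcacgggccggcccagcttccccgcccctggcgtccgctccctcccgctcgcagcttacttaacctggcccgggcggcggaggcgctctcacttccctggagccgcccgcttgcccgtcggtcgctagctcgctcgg
TGFB2: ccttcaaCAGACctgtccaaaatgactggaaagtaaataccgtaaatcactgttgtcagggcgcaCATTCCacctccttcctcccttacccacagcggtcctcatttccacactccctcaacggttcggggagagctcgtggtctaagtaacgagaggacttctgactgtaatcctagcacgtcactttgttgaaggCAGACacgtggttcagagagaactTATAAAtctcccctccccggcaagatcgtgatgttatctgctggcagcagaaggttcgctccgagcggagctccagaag
The CCN2 window held GGAATG 3 times, beginning 169, 104 and 95 bases before the start, beside 1 CAGAC at 177 and 1 TATAAA at 32. Of all 35116 windows in the table, 14.0% held GGAATG at least once and 0.128% at least 3 times, while 45.3% held CAGAC and 11.5% TATAAA. The TGFB2 window held GGAATG once on the opposite strand, 185 bases before the start, CAGAC 2 times, at 243 and 53, and TATAAA at 29. CAGAC occurred at least 2 times in 13.1% of windows. None of these letters stood in the TGFBI window, which was 72.7% G and C, compared with 54.3% for CCN2 and 51.7% for TGFB2. TGANTCA, found in 7.71% of windows, was in none of the 3. A match describes the letters and shows no binding.

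**Figure D4:**
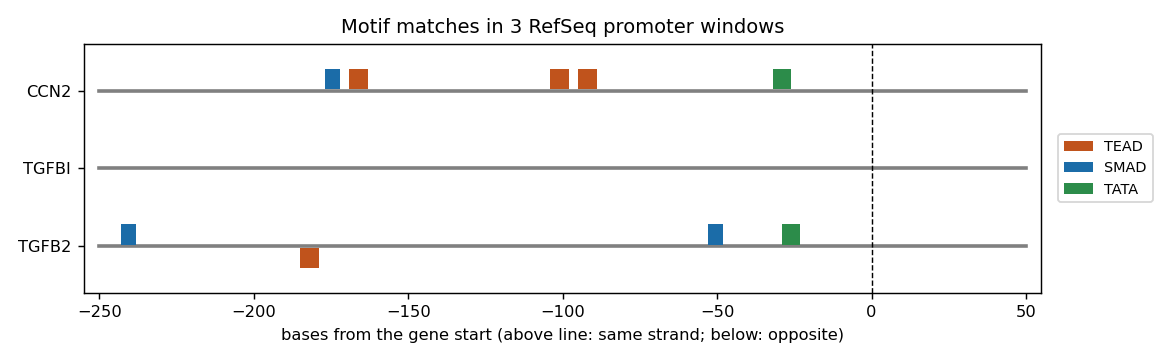
Positions of the TEAD, SMAD and TATA motif matches (coloured boxes) in the promoter windows of CCN2, TGFBI and TGFB2, in bases from the gene start (dashed), with matches on the gene's strand above the line and on the opposite strand below it. CCN2 has 3 TEAD matches and TGFBI has no match to any motif.

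The other genes of the pathway were taken as 6 lists with 85 different genes, of which 82 had a probe set assigned to them alone. With wild-type JMJD3, 74 were measured, 48 were above control and 21 below, and 1 was 2-fold higher and 0 lower, with a median of 0.15. With mutant JMJD3, 76 were measured, 35 above and 35 below, 5 were 2-fold higher and 1 lower, with a median of 0.00. Between wild-type and mutant JMJD3, 43 were above and 31 below, 5 were 2-fold higher and 6 lower, with a median of 0.06. Over all measured genes the medians were 0.05, 0.00 and 0.00. In the same order, 54.4%, 45.9% and 49.7% of all genes were above. The shares 2-fold higher were 0.953%, 2.98% and 2.61%, and those 2-fold lower were 1.31%, 0.535% and 6.2%. The counts of the single lists below stand beside the same shares. As the lists were chosen with earlier results of these data known, their counts are no test.

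Among 16 ligands and genes of ligand latency, none of the 14 measured differed 2-fold between wild-type JMJD3 and control (8 above, 3 below, median 0.06). The integrin chains ITGB8 and ITGAV, whose dimer releases latent TGF-beta, were lower with wild-type JMJD3. ITGB8 read 8.79 with wild-type JMJD3, 9.49 with mutant JMJD3 and 9.54 in control, and ITGAV read 10.48, 11.22 and 11.06 in that order. THBS1, thrombospondin 1, is another activator of latent TGF-beta. Its brightest probe set was highest with wild-type JMJD3, at 10.35, against 9.09 with mutant JMJD3 and 9.65 in control. Without its shared probe sets, and with the median over its probe sets, wild-type JMJD3 against control was -0.04 on the log2 scale. THBS1 was the only gene of this list past 2-fold between the JMJD3 arrays, 2.39-fold higher with wild-type. It fell short of 2-fold (0.90 on the log2 scale) without its shared probe sets. GDF15, a distant family member, exceeded control 1.28-fold with wild-type JMJD3. In the mutant comparison 7 genes were above and 7 below control, with a median of 0.00. INHBA, the activin A chain, was over the floor only with mutant JMJD3 and was at least 1.75-fold higher there than in control. Its bound passed 2-fold once the floor was lowered to the 40th percentile (1.40 on the log2 scale) and without shared probe sets (1.19). With the floor at the 60th percentile INHBA was at only 0.12, and with quantile normalization at 0.75. LTBP2, a relative of the latent TGF-beta binding proteins, was 1.66-fold higher, and ITGB5 was 1.27-fold lower, though its probe set without shared probes gave 1.48 on the log2 scale, higher. TGFB3, the remaining TGF-beta ligand, read 6.10 to 6.13 in all arrays.

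Of 8 further receptors, 6 were measured, with 3 above and 3 below control in each JMJD3 array and medians of 0.01 and -0.07. Without shared probe sets, which left 5 of them measured, these medians were -0.31 and 0.26, and that of wild-type against mutant JMJD3 was -0.57 in place of 0.19. ACVR2B, an activin type II receptor, had the widest spread, with 6.73 for wild-type JMJD3, 8.09 for mutant JMJD3 and 7.32 for control, so that wild-type was 2.57-fold lower than mutant, but the median over its probe sets gave 0.01 on the log2 scale. TGFBR3, the betaglycan needed by TGFB2, followed the same order at 9.67, 10.24 and 9.98. The co-receptor endoglin (ENG) went the other way, at 8.72, 7.99 and 8.39. ACVR1B, the activin type I receptor, exceeded control 1.25-fold with wild-type JMJD3. With mutant JMJD3 the decoy receptor BAMBI was 1.34-fold under control.

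None of 14 SMADs and SMAD regulators reached 2-fold in any comparison. With wild-type JMJD3, 8 were above control and 4 below, with a median of 0.12. The feedback inhibitors PMEPA1 and SMAD7, which TGF-beta itself induces, exceeded control 1.57-fold and 1.56-fold in the wild-type JMJD3 array, at 10.11 there against 9.46 in control for PMEPA1 and at 8.25 against 7.61 for SMAD7. With mutant JMJD3 they read 9.37 and 7.61, near or at control. The corepressor TGIF1 was 1.37-fold and the inhibitory SMAD6 1.36-fold higher with wild-type JMJD3, but TGIF1 was at -0.19 on the log2 scale without its shared probe sets. With mutant JMJD3, 6 genes were above and 6 below control, with a median of 0.00. SKIL, another feedback repressor, was 1.64-fold higher with the mutant (-0.10 on the log2 scale with the median over its probe sets) and 1.14-fold lower with wild-type than in control, and the coactivator CREBBP was 1.73-fold lower with the mutant.

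Of 29 TGF-beta target genes outside the 9, 25 were measured. With wild-type JMJD3, 20 of these were above control, beside 54.4% of all genes, and 4 below, with a median of 0.37. Only HMGA2, a chromatin protein, passed 2-fold, at 2.11-fold higher, and its log2 difference was 0.74 with the offset. TGFB1I1, the focal adhesion protein Hic-5, was 1.75-fold higher, fibronectin (FN1) 1.66-fold (1.13 on the log2 scale with the median over its probe sets) and THBS1 1.62-fold, though -0.04 on the log2 scale without its shared probe sets. IL11, a cytokine, was 1.22-fold higher, but its log2 difference was 1.0 with the median over its probe sets and 0.99 without shared probe sets. With mutant JMJD3, 14 were above control, beside 45.9% of all genes, and 9 below, with a median of 0.13. Beside 2.98% of all genes, 4 were 2-fold higher. These were FN1 at 5.54-fold, HMGA2 at 4.76-fold, KLF10, a transcription factor induced early by TGF-beta, at 2.13-fold, and the CDK inhibitor CDKN2B at 2.0-fold. The values of FN1, HMGA2 and KLF10 rest on shared probe sets, and none of these genes had a value without them. CDKN2B was dim and lost 2-fold under 4 alternatives, at 0.02 to 0.95 on the log2 scale. ACTA2 fell just short of 2-fold, at 1.99-fold higher. Its log2 difference was 1.0 with the arrays shifted to a common median and 0.69 with the offset. Set directly against mutant JMJD3, 14 of the 25 were higher with wild-type, beside 49.7% of all genes, and 11 lower. Beside 2.61% of all genes, 2 were 2-fold higher (THBS1 and TGFB1I1, the second at 2.01-fold). Beside 6.2%, 4 were 2-fold lower (FN1, HMGA2, KLF10 and CDKN2B). Of these TGFB1I1 (0.96) and HMGA2 (-0.97) were under 2-fold with the offset, and CDKN2B was -0.97 to -0.02 under the same 4 alternatives. HMGA2 read 7.17 with wild-type JMJD3, 8.34 with mutant JMJD3 and 6.09 in control, and FN1 read 8.31, 10.05 and 7.58. SMAD7, PMEPA1, SKIL, LTBP2 and THBS1 stand in this list and in another.

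**Figure D5:**
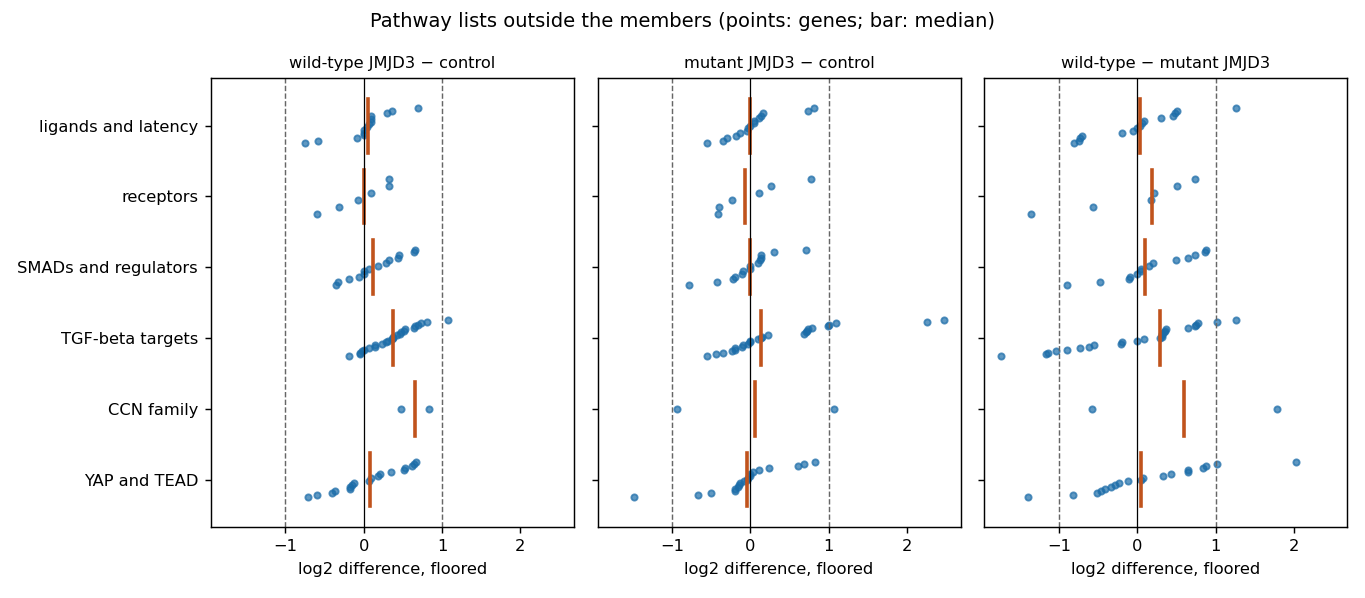
Log2 differences after flooring (horizontal axes) of the measured genes in 6 pathway lists outside the 9 genes, 1 point per gene, for wild-type JMJD3 minus control, mutant JMJD3 minus control and wild-type minus mutant JMJD3, with orange bars at the list medians and dashed lines at 2-fold. The target list has its median at 0.37, 0.13 and 0.29 in the 3 panels.

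Of the other CCN genes, 2 of 4 were measured. CCN5, another matricellular family member, read 12.40 with wild-type JMJD3, 10.62 with mutant JMJD3 and 11.56 in control, the same order as CCN1 and with a wider spread. Its wild-type value exceeded the mutant value 3.43-fold and the control value 1.79-fold, and its mutant value was 1.92-fold under control. CCN3 had another order, at 6.66, 7.24 and 6.18, and exceeded control 2.08-fold with mutant JMJD3, though only by 0.58 on the log2 scale with the median over its probe sets and by 0.74 with the offset. The medians of this pair were 0.66, 0.06 and 0.60 in the 3 comparisons.

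Among 20 genes of YAP and TEAD signalling and its targets, none of 18 measured differed 2-fold between wild-type JMJD3 and control, with 10 above, 8 below and a median of 0.08. YAP1 read 10.92 with wild-type JMJD3, 11.39 with mutant JMJD3 and 11.52 in control, and WWTR1, which encodes TAZ, read 10.25, 11.64 and 10.96. WWTR1 was above control with wild-type JMJD3 (0.26 on the log2 scale), the other direction, with the median over its probe sets. Read in that way, YAP1 with wild-type JMJD3 was at 0.01 against mutant JMJD3, in place of -0.47. FJX1, the TEAD factor TEAD2 and the receptor kinase AXL exceeded control 1.59-fold, 1.56-fold and 1.54-fold with wild-type JMJD3. With mutant JMJD3, 6 genes were above control and 11 below, with a median of -0.04, and AJUBA, a LIM protein that inhibits the LATS kinases, was 2.81-fold lower. Between the JMJD3 arrays AJUBA (4.06-fold) and AMOTL2 (2.03-fold) were higher with wild-type and WWTR1 was 2.62-fold lower. AMOTL2 was at 0.99 on the log2 scale with the offset, and WWTR1 at 0.12, the other direction, with the median over its probe sets. DLC1 was over the floor only with mutant JMJD3 and was at least 1.77-fold higher there than in control. That bound depended on the floor, at 1.41 on the log2 scale with the 40th percentile and 0.13 with the 60th. ARHGEF17 was 1.59-fold lower with the mutant. ANKRD1, a common YAP target, was under the floor in every array, at 3.46 to 3.52.

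CCN2 and TGFBI had the only brightest probe sets among the 9 genes whose values spanned 2-fold. Their patterns were set against 8560 other genes. These were over the floor in all arrays and over the pooled 75th percentile (7.59) in at least 1. Likeness was the Euclidean distance between the pairs of differences from control, over 3 arrays. Nearest to CCN2 were RFTN1, a lipid raft protein gene, at a distance of 0.090, the caspase gene CASP9 at 0.108 and the glutathione transferase MGST3 at 0.122. RFTN1 read 11.31 with wild-type JMJD3, 10.51 with mutant JMJD3 and 10.34 in control. Nearest to TGFBI were the sorting nexin SNX21, with the same differences to 2 decimals, the small heat shock protein HSPB8 at 0.094 and the sulfotransferase CHST2 at 0.10. HSPB8 read 10.74 with wild-type JMJD3, 10.45 with mutant JMJD3 and 9.30 in control. Within a distance of 0.2 there were 15 genes for CCN2 and 4 for TGFBI. With 3 arrays such a likeness is a description of these values alone.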

How the data were processed

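Biotin-labelled RNA of 3 stable PANC-1 lines was measured on Affymetrix arrays, 1 per line. The deposited values are log2 signals per probe set, and MAS5 is named for them per the submitters' processing notes, with no settings. The scaling between arrays was not given in the sources used here. The sorted columns differed by at most 0.14 and many dim values were identical between arrays, which is not typical of plain MAS5 signals, so any further step applied to them is not known here.

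Names came from the platform annotation, and 41037 of 41091 with 1 gene were matched to RefSeq by gene identifier. The floor, 2-fold threshold and brightest probe set are defined in the results. No test was possible with 1 array per group, and the number of arrays limits the precision. The gene-level calculation was tested on simulated data. Calculations used pandas 2.3.3 and numpy 2.4.6 under Python 3.11.15, figures matplotlib 3.10.9, and 7 alternatives were tried.

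The members and lists were chosen with earlier results of these data known. Named are all 9 genes, KDM6B, up to 4 genes per list and comparison with the largest difference, and the 3 genes nearest in pattern to each member spanning 2-fold. Further genes of the lists, such as ACTA2 and genes with small differences, were named in addition, after their values were seen.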

Additional observations from a re-analysis of the deposited data

How the results depend on the processing

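There were 7 alternatives. Arrays were shifted to a common median or quantile normalized, the floor was moved to the 40th or the 60th percentile or replaced by adding the pooled median signal as an offset, and a gene was read by the median of its probe sets or without those of shared probes. For the 9 genes, 2-fold counts changed under 4 of them. With wild-type JMJD3 against control, the 2-fold higher count became 1 with quantile normalization, as CCN2 was 0.99. The 2-fold lower count of 0 became 1 with the median over probe sets and 1 without shared probe sets, as TGFBR1 was -1.16 in both. With mutant JMJD3 against control, the higher count of 1 became 0 with the offset, as TGFBI was 0.97. Signs turned only for SMAD3 (-0.005, median over probe sets) and SMAD4 (-0.0033, quantile normalization), both with mutant JMJD3 against control. TGFB1 with wild-type JMJD3 against control ranged from 0.06 (without its shared probe set) to 0.57, and SMAD3 with mutant JMJD3 reached 0.66. With the median over probe sets, 7 of the 9 genes were measured against control with wild-type JMJD3. Of 126 list medians recomputed, 10 moved by more than 0.14. The pathway genes were run through the same alternatives after seeing the data, and of 1470 values 38 changed sign, for 19 genes, 24 of them with the median over probe sets, 10 without shared probe sets and 4 with quantile normalization. Beside 17 values that lost 2-fold and 9 that gained it, 5 of the sign changes involved a 2-fold value. These 5 were ITGB5 with mutant JMJD3 against control (1.48) and, for wild-type against mutant JMJD3, ITGB5 (-1.32) and ACVR2A (-1.32) without shared probe sets, and ACVR2B (0.01) and WWTR1 (0.12) with the median over probe sets. No paired analysis was possible because each group has 1 array. The cause of these changes beyond the probe sets and values left out was not tested.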

Other observations

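Of the 25 probe sets of the TGF-beta genes, 9 were never over the floor and entered no comparison. Of these, 1565703_at of SMAD4 had the widest spread, at 4.45 with wild-type JMJD3, 4.89 with mutant JMJD3 and 5.48 in control. Its order of wild-type JMJD3 below control was that of the measured SMAD4 probe sets, while its mutant value was under control and theirs were not. Probe set 220406_at of TGFB2 read 4.79 with wild-type JMJD3, 4.37 with mutant JMJD3 and 4.40 in control, opposite in direction to the measured TGFB2 probe sets for wild-type JMJD3 against control. The probe sets 209908_s_at of TGFB2 (3.15), 206943_at of TGFBR1 (5.04) and 202526_at of SMAD4 (3.59) held the same value in every array.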
